A study of Mus musculus with 7 samples.

Results

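The Snail, Zeb, Twist and Prrx transcription factors of mesenchymal cells were followed from MEF into iHepSCs and set beside pHep. The members are the 8 genes Snai1, Snai2, Zeb1, Zeb2, Twist1, Twist2, Prrx1 and Prrx2, of 18193 genes measured, and all 21 probe sets that carry 1 of these symbols alone, of 45101 on the array. The rule uses gene names. A probe set is a group of short probes whose signals are combined into 1 value for a transcript, here a log2 level after RMA (robust multi-array averaging). The study converted mouse fibroblasts into hepatic stem cells by viral delivery of Oct4 and Hnf4α, and profiled them on Affymetrix mouse expression arrays.

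All cells were labelled C57BL/6, and the study's methods give C57BL/6J for the embryos and hepatocyte donors. The iHepSC group (2 arrays, 1 at passage 20 and 1 at passage 3) was made from MEF infected with lentivirus for both factors, then moved to HEP medium with HGF, EGF, dexamethasone and nicotinamide, picked as aggregates and expanded as clones on collagen. The study took clone iHepSC-C3 for detailed work, while its array methods speak of clones without naming them. The pHep group (1 array) held hepatocytes obtained by collagenase perfusion of livers from mice aged 6 weeks. The labels say they were kept in HEP medium, and the paper calls them freshly isolated. MEF (4 arrays) were unconverted fibroblasts of mouse embryos in serum medium, without virus. The iHepSCs thus differ from MEF in virus, medium and matrix together, and pHep differ from MEF in age, tissue and, by the labels, medium. By the paper's methods pHep were also plated on collagen before RNA extraction. The replicates are not said to be separate cultures, so the p-values measure only the spread between these arrays, which may be technical.

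SNAI1 and SNAI2 (Slug) are zinc finger repressors, and ZEB1 and ZEB2 carry zinc finger clusters around a homeodomain. Both families bind E-boxes in the promoters of epithelial genes such as Cdh1 and recruit corepressors, which makes them drivers of epithelial-mesenchymal transition. TWIST1 and TWIST2 are basic helix-loop-helix proteins that act as dimers with E-proteins, and PRRX1 and PRRX2 are paired-related homeodomain proteins of limb, craniofacial and connective tissue mesenchyme. In liver, such factors are chiefly known from stellate cells, portal fibroblasts and carcinoma cells, while hepatocytes are epithelial.

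The labelled cell types were checked by marker lists. Of 9 measured fibroblast markers, 9 were lower in iHepSCs than in MEF, where their mean log2 level was 11.7 to 12.7. On pHep their mean was 8.06, and 7 of the 9 were lower than in MEF, the exceptions being Dcn and Lum. Of 10 hepatocyte markers, 9 were higher on pHep and 5 in iHepSCs than in MEF, while Cyp2e1 was at 5.11 on pHep. Of 10 hepatic progenitor markers, 8 were higher and 1 lower than in MEF, both on pHep and in iHepSCs (limma). Sox9 was at 10.90 on pHep, 6.06 on iHepSC-P20, 6.38 on iHepSC-P3 and 7.09 to 7.78 in MEF. Afp was at 12.44 on pHep, 10.52 on iHepSC-P20 and 10.45 on iHepSC-P3. Of the 10, 3 were lower in iHepSCs than on pHep and 2 higher. The pHep array thus read high for most of the 10 progenitor markers as well as hepatocyte markers, and why was not tested. The exceptions were Krt19 and Epcam (-0.91 from MEF on 1447899_x_at). Krt19 was at 9.70 on pHep, 14.07 on iHepSC-P20, 14.43 on iHepSC-P3 and 7.78 to 9.67 in MEF. The paper uses Hnf4a, Foxa2, Cdh1, Krt8 and Krt18 as hepatocyte markers too, so the count does not separate progenitors from hepatocytes. Array medians lay between 6.28 and 6.33. MEF replicate 1 correlated with the other MEF arrays at 0.960 to 0.961, against 0.997 among those 3, and its cell division markers averaged 8.04, against 10.87 to 11.03. Centring the arrays on the Gapdh control probe sets shifted the median of all differences between iHepSC and MEF to 0.49 on the log2 scale, beside -0.0028 as deposited.

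Most of the mesenchymal factors were lower in iHepSCs than in MEF. Of the 21 probe sets, 15 were lower (limma, adjusted p under 0.05), beside 9.76% of all probe sets, and 0 were higher, beside 13.0%. With Gapdh centring 13 were lower and 2 higher, namely Zeb1 1446127_at (1.04, adjusted p = 0.0374) and Prrx1 1458004_at (0.67, adjusted p = 0.0462). By gene, where the probe set of highest mean stood for the gene, 7 of 8 were lower, beside 12.5% of all genes, and the exception was Twist1. The median difference over the 8 genes was -2.93 on the log2 scale, beside 0.01 over all genes. Both iHepSC arrays lay below all 4 MEF arrays on 18 of 21 probe sets, beside 21.1% of all probe sets.

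The same genes were mostly lower on pHep than in MEF. On pHep 14 of the 21 probe sets were lower than in MEF (limma), beside 12.3% of all probe sets, and 1 was higher, beside 15.4% (27.7% in either direction). By gene 6 of 8 were lower, beside 15.2% of all genes lower and 29.8% changed in either direction, the others being Zeb2 and Zeb1 (adjusted p = 0.787 and 0.0524), and the median over the 8 genes was -4.01, beside -0.13 over all genes. The single pHep array lay below every MEF array on 16 of 21 probe sets, beside 42.6% of all probe sets. Both comparisons share the MEF arrays. In bulk RNA, fewer cells of a type and less RNA per cell cannot be told apart.

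These counts moved with single arrays. Without the iHepSC-P20 array 4 genes were lower in iHepSCs, the calls for Snai1 (adjusted p = 0.0574), Prrx2 (adjusted p = 0.0598) and Zeb1 (adjusted p = 0.161) being lost (limma). Without MEF replicate 1 all 8 were lower and 17 of 21 probe sets passed the test, 16 lower and 1 higher, but 47.6% of all probe sets passed it too. Of the 21 probe sets, 18 reached a log2 level of 6 on at least 1 array, and 3 (Zeb1 1420243_at, Zeb2 1454200_at and Prrx1 1458004_at) did not.

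**Figure D1:**
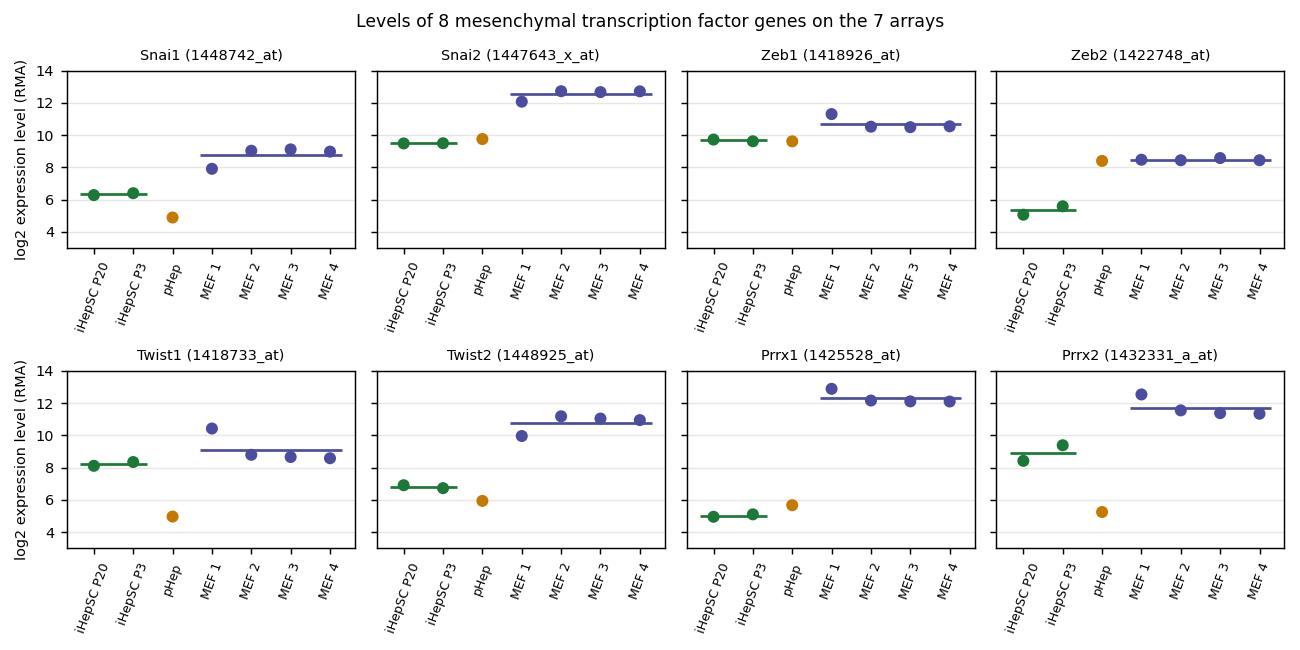
Log2 expression level (RMA) of the 8 genes on the 7 arrays, with 1 probe set per gene, that of highest mean; points are arrays (green iHepSC, orange pHep, blue MEF) and lines are the means of iHepSC and MEF. Prrx1 and Twist2 stand far apart between iHepSC and MEF, and Zeb2 on pHep lies at 8.40, next to the MEF arrays. Snai1, Twist1, Twist2 and Prrx2 in iHepSCs lie between pHep and MEF, with Twist1 and Prrx2 furthest above pHep.

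Snai1 encodes the founding repressor of the family. Its probe set 1448742_at had log2 levels of 6.28 on iHepSC-P20 and 6.40 on iHepSC-P3, 4.89 on pHep, and 7.91, 9.03, 9.12 and 8.98 on MEF replicates 1 to 4. All MEF arrays lay above the other 3. The difference of iHepSC from MEF was -2.42 ± 0.36 (standard error; limma, adjusted p = 0.00484), or 5.35-fold lower, and that of pHep was -3.87 ± 0.46 (adjusted p = 0.00201). No fold is given where the lower level was under 6, since the values used here hold no detection call. Between iHepSC and pHep it was 1.45, with a 95% interval of 0.22 to 2.68 and adjusted p = 0.121. That difference passed the test without MEF replicate 1 (adjusted p = 0.0001005) and with Gapdh centring (adjusted p = 0.0119).

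Snai2, which encodes Slug, a repressor of neural crest and fibroblast cells, was lower in both hepatic cell types than in MEF. On 1418673_at it was at 8.15 on iHepSC-P20 and 8.14 on iHepSC-P3, 8.28 on pHep, and 11.04, 10.80, 10.85 and 10.91 on the MEF arrays. The second probe set, 1447643_x_at, gave 9.49, 9.50, 9.76, and 12.07, 12.72, 12.67 and 12.72 in the same order. On each, the hepatic arrays sat within 0.3 of each other and more than 2 below the lowest MEF array. The differences of iHepSC from MEF were -2.75 ± 0.10 (adjusted p = 1.70e-05) and -3.05 ± 0.21 (adjusted p = 0.000194), and those of pHep were -2.62 and -2.79 (limma). Between iHepSC and pHep they were -0.13 (95% interval -0.48 to 0.22) and -0.27 (-0.98 to 0.45), neither past the test.

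The promoter of Snai1 is shown because, of the 6 members with an entry among RefSeq promoters (GRCm38.p6), it is the one with the E-box CAGGTG, which SNAI1 binds and through which the human protein is known to repress its own gene. Both strands were searched (CAGGTG or CACCTG) in the 250 bases before each annotated start. Capitals mark the box, whose first base is at -126, counted from -1 at the base before the start.
Snai1, chr2:167537945-167538194, strand +: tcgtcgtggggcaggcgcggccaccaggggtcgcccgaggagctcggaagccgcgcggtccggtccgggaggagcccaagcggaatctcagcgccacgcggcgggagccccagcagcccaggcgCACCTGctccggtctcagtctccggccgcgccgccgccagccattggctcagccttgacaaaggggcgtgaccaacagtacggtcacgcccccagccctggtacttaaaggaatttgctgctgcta

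The E-box was in 17.2% of all 32851 RefSeq promoters of this length, and in 19.4% of their 27025 genes. Zeb2, Twist1, Twist2, Prrx1 and Prrx2 had none in any of their windows. A match is a run of letters and was not tested as a binding site.

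Zeb2 was lower in iHepSCs than in both MEF and pHep. On 1422748_at its log2 level was 5.07 on iHepSC-P20 and 5.59 on iHepSC-P3, 8.40 on pHep, and 8.47, 8.44, 8.58 and 8.44 on the MEF arrays. Thus pHep lay just under the lowest MEF array, and both iHepSC arrays far below it. The difference of iHepSC from MEF was -3.16 ± 0.16 (limma, adjusted p = 5.56e-05). That of pHep from MEF was -0.08 (95% interval -0.58 to 0.41, adjusted p = 0.787), and that of iHepSC from pHep was -3.07 ± 0.22 (adjusted p = 0.00044).

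Other probe sets of Zeb2 placed pHep between the iHepSC and MEF groups. On 1434298_at the levels were 4.88 and 5.15 in iHepSCs, 7.60 on pHep, and 9.26, 8.43, 8.59 and 8.67 in MEF. On 1456389_at they were 5.07 and 5.09, then 6.97, then 8.74, 8.09, 8.21 and 8.17. On each, the single pHep array lay above both iHepSC arrays and below all MEF arrays. The differences of iHepSC from MEF were -3.72 and -3.22, those of pHep from MEF were -1.14 (adjusted p = 0.043) and -1.33 (adjusted p = 0.0122), and those of iHepSC from pHep were -2.58 (adjusted p = 0.00485) and -1.89 (adjusted p = 0.00687; limma). The call for pHep on 1434298_at was lost without any 1 of MEF replicates 2 to 4 or either iHepSC array (adjusted p between 0.0516 and 0.088). With Gapdh centring neither pHep call held (adjusted p = 0.134 and 0.0648). The remaining probe sets, 1454200_at (3.97 to 4.66 over all arrays) and 1458941_at (5.76 to 6.14), did not pass the test in any comparison.

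Markers of macrophages, cells of the liver that hepatocyte preparations can carry and that are known to express Zeb2, stood high on the pHep array. Of 12 such markers, 8 had higher levels on pHep than MEF had and 0 lower, and 10 were lower in iHepSCs than on pHep (limma). The last count was 5 without iHepSC-P3 and 6 without iHepSC-P20 or with Gapdh centring. Their mean log2 level was 5.63 and 5.64 on the iHepSC arrays, 9.31 on pHep and 6.14 to 6.98 on the MEF arrays. Vsig4 was at 11.57, Cd163 at 11.15 and Marco at 9.24 on pHep, while Clec4f (6.08) and Cd5l (5.97) were near the array median. Even so, Cd5l was among the 8 called higher than in MEF (0.71, limma, adjusted p = 0.0302). Of 10 stellate cell markers, 1 was higher on pHep than in MEF (Reln, 6.69) and Lrat was at 4.19, and of 10 endothelial markers 0 were higher. Fibroblast markers, which stromal cells of the liver also express, averaged 5.89 on iHepSC-P20 and 5.85 on iHepSC-P3, against 8.06 on pHep. In iHepSCs 5 of 9 were lower than on pHep (Col1a1, Col1a2, Col3a1, Pdgfrb and Postn; limma), or 3 with Gapdh centring, and so were 2 of the 10 stellate cell markers (Reln and Pdgfrb), or 1 to 3 with 1 array left out. Pdgfrb, a receptor of stellate cells and fibroblasts, was at 3.52 and 3.31 in iHepSCs and 8.83 on pHep, and the collagen gene Col3a1 at 4.92 and 5.20 in iHepSCs and 10.87 on pHep. The part of these cells in the Zeb2 level of pHep was not tested.

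Zeb1 changed least among the members called lower in iHepSCs. Its probe set 1418926_at was at 9.72 on iHepSC-P20 and 9.62 on iHepSC-P3, 9.61 on pHep, and 11.31, 10.52, 10.49 and 10.55 in MEF. All hepatic arrays lay below all MEF arrays, among which replicate 1 was the highest. The difference of iHepSC from MEF was -1.04 ± 0.25 (adjusted p = 0.0319) and that of pHep was -1.10 ± 0.33 (adjusted p = 0.0524; limma). Without any 1 of the iHepSC arrays or MEF replicates 2 to 4 the call for iHepSC was lost (adjusted p between 0.0597 and 0.185), and with Gapdh centring as well (adjusted p = 0.226). Without MEF replicate 1 the pHep difference passed the test (-0.91, adjusted p = 0.000264).

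The probe sets of Zeb1 did not move together. On 1443005_at the levels were 7.35 and 7.15 in iHepSCs, 6.63 on pHep, and 7.88, 7.82, 7.55 and 7.75 in MEF, with differences of -0.50 (adjusted p = 0.038) for iHepSC and -1.12 (adjusted p = 0.0047) for pHep (limma). The call for iHepSC was lost without either iHepSC array or without MEF replicate 2 or 4 (adjusted p between 0.0953 and 0.235), with arrays centred on their medians (0.052), with a trended and robust variance (0.0617) and with Gapdh centring (difference -0.01, adjusted p = 0.972). On 1446127_at pHep was high instead, at 7.95, against 5.89 and 6.48 in iHepSCs and 5.98, 5.43, 5.74 and 5.41 in MEF. There pHep was 2.31 ± 0.30 above MEF (adjusted p = 0.00297), the sole rise among the 21 probe sets in that comparison, and the difference of iHepSC from pHep was -1.76 (adjusted p = 0.0177). Without iHepSC-P20 that last call was lost (adjusted p = 0.0719). The fourth probe set, 1420243_at, stayed between 4.25 and 4.57 on all arrays. Which transcripts these probe sets cover was not analysed here.

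**Figure D2:**
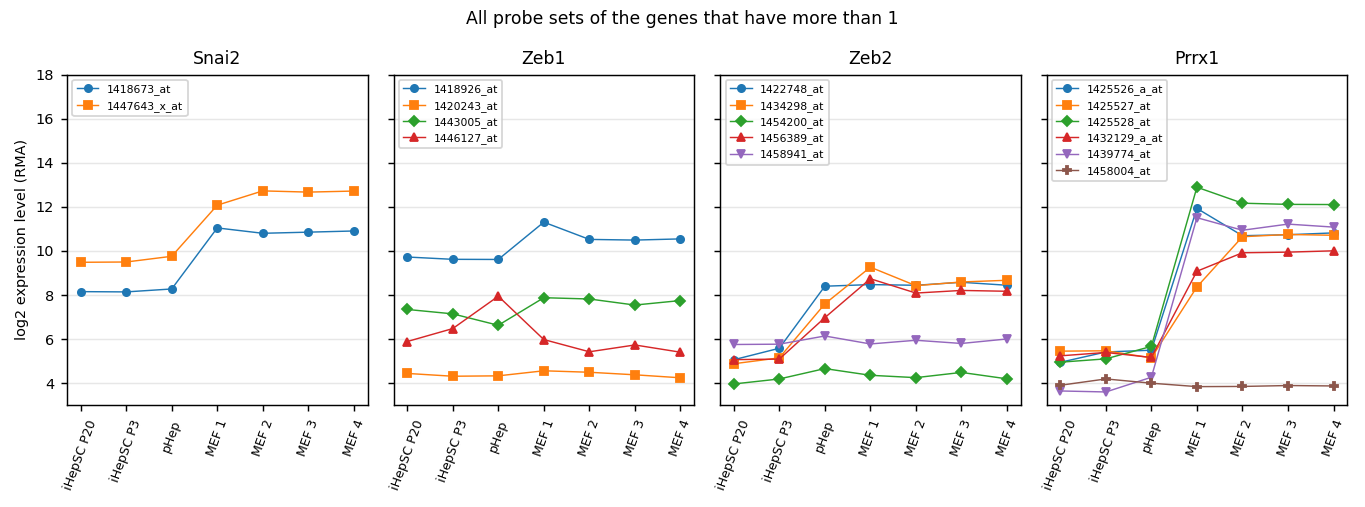
Log2 expression level (RMA) of every probe set of Snai2, Zeb1, Zeb2 and Prrx1 on the 7 arrays (iHepSC-P20, iHepSC-P3, pHep and MEF replicates 1 to 4); each line is 1 probe set and joins its values only for reading. Both lines of Snai2 run in parallel, and 1 line of Zeb1 peaks on pHep at 7.95. All lines of Zeb2 are lowest in iHepSCs, 3 of them far below MEF. All 6 lines of Prrx1 are under 6 on all hepatic arrays, and 1 of them (1458004_at) is so in MEF too.

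Of the Twist pair, Twist2 passed the test between iHepSC and MEF and Twist1 did not, and the difference between the 2 genes was not tested. Twist1, a driver of cranial mesenchyme and of invasion in carcinoma, was at 8.12 on iHepSC-P20 and 8.35 on iHepSC-P3, 4.97 on pHep, and 10.43, 8.80, 8.66 and 8.59 in MEF on 1418733_at. The iHepSC arrays lay just under the lowest MEF array and far above pHep. The difference of iHepSC from MEF was -0.89 ± 0.54 (95% interval -2.21 to 0.44, adjusted p = 0.3115), which does not show that the groups are alike. Without MEF replicate 1 it was -0.45 and passed the test (adjusted p = 0.0118). The difference of pHep from MEF was -4.15 ± 0.70 (adjusted p = 0.00771), and iHepSC stood 3.26 ± 0.77 above pHep (adjusted p = 0.0378; limma). That last call was lost without any 1 of the iHepSC arrays or MEF replicates 2 to 4 (adjusted p between 0.0662 and 0.159).

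Twist2, known as a repressor in dermal and bone-forming mesenchyme, fell in iHepSCs. Its probe set 1448925_at was at 6.91 on iHepSC-P20 and 6.73 on iHepSC-P3, 5.94 on pHep, and 9.96, 11.19, 11.05 and 10.95 in MEF, so that no MEF array came near the others. The differences were -3.97 ± 0.35 for iHepSC (adjusted p = 0.000598), or 15.6-fold lower, and -4.85 ± 0.45 for pHep (adjusted p = 0.000795; limma). Between iHepSC and pHep the difference was 0.88 (95% interval -0.33 to 2.09, adjusted p = 0.316), and it passed the test without MEF replicate 1 (adjusted p = 0.00262). The promoters of both are shown because the genes are paralogs of which 1 was called lower in iHepSCs, and the windows hold no CAGGTG or CACCTG, so that no letters are in capitals.
Twist1, chr12:33957421-33957670, strand +: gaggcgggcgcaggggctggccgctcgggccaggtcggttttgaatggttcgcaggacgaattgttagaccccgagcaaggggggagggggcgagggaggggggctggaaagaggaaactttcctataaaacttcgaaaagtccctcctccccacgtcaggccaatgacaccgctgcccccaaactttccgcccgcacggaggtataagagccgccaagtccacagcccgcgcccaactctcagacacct
Twist2, chr1:91801211-91801460, strand +: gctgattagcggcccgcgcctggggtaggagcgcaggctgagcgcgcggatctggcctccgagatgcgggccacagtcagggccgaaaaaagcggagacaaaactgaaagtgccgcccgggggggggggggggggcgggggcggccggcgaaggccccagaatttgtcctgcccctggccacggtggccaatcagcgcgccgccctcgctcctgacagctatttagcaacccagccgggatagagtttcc

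Prrx1, a homeodomain factor of fibroblasts and limb bud mesenchyme, had the largest differences of the 8 genes. On 1425528_at it was at 4.95 on iHepSC-P20 and 5.11 on iHepSC-P3, 5.67 on pHep, and 12.89, 12.16, 12.11 and 12.10 in MEF. On 1439774_at it was at 3.65, 3.60, 4.27, and 11.51, 10.94, 11.22 and 11.08 in the same order. The hepatic levels of 1439774_at lay below the first quartile of the arrays (4.88 to 4.95), those of 1425528_at between the first quartile and the median, and the MEF levels far above both. The differences of iHepSC from MEF were -7.29 ± 0.25 (adjusted p = 1.22e-05) and -7.56 ± 0.17 (adjusted p = 2.68e-06), and those of pHep were -6.65 and -6.91 (limma).

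The other Prrx1 probe sets gave differences of iHepSC from MEF of -5.86 (1425526_a_at), -4.65 (1425527_at) and -4.42 (1432129_a_at), all past the test, and 0.18 (1458004_at, adjusted p = 0.291). For pHep they were -5.54, -4.97, -4.57 and 0.13. The last probe set was at 3.85 to 4.20 on all arrays, MEF included. MEF replicate 1 stood apart in opposite directions. It was higher than replicates 2 to 4 on average by 1.18 on 1425526_a_at, 0.76 on 1425528_at and 0.43 on 1439774_at, and its difference was -2.33 on 1425527_at and -0.88 on 1432129_a_at. On 1425527_at the levels were 5.46 and 5.47 in iHepSCs, 5.15 on pHep, and 8.37, 10.64, 10.75 and 10.71 in MEF, and the call for iHepSC was lost without either iHepSC array (adjusted p = 0.0574 and 0.0617; limma). Probe sets with the _a_at suffix are designed on several transcripts of 1 gene, and which form each probe set reads was not analysed here.

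Prrx2, the paralog of Prrx1 that is best known from fetal dermis and craniofacial mesenchyme, fell in iHepSCs but stayed above pHep. On 1432331_a_at it was at 8.42 on iHepSC-P20 and 9.39 on iHepSC-P3, 5.25 on pHep, and 12.54, 11.55, 11.38 and 11.34 in MEF. The single pHep array lay below both iHepSC arrays, and these lay below all MEF arrays. How many of all probe sets had this order was not counted. The differences were -2.80 ± 0.43 for iHepSC from MEF (adjusted p = 0.00559), or 6.95-fold lower, -6.45 ± 0.55 for pHep from MEF (adjusted p = 0.000551), and 3.66 ± 0.60 for iHepSC from pHep (adjusted p = 0.0107; limma). The last was not past the test without iHepSC-P3 (adjusted p = 0.0558).

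Between iHepSC and pHep, then, the members went both ways. Of 21 probe sets, 4 were lower in iHepSCs (3 of Zeb2 and Zeb1 1446127_at), beside 9.13% of all probe sets, and 2 were higher (Twist1 and Prrx2), beside 6.48% (limma). By gene, 1 of 8 was lower, beside 7.77% of all genes, and 2 were higher, beside 9.15%. With Gapdh centring all differences of this comparison shift up, and Snai1 was then called higher, while the calls for Zeb1 1446127_at and Zeb2 1456389_at were lost. Without MEF replicate 1, 12 of 21 passed the test, 7 lower and 5 higher, beside 37.1% of all probe sets. The comparison rests on 1 pHep array, whose spread was taken from the other groups.

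**Figure D3:**
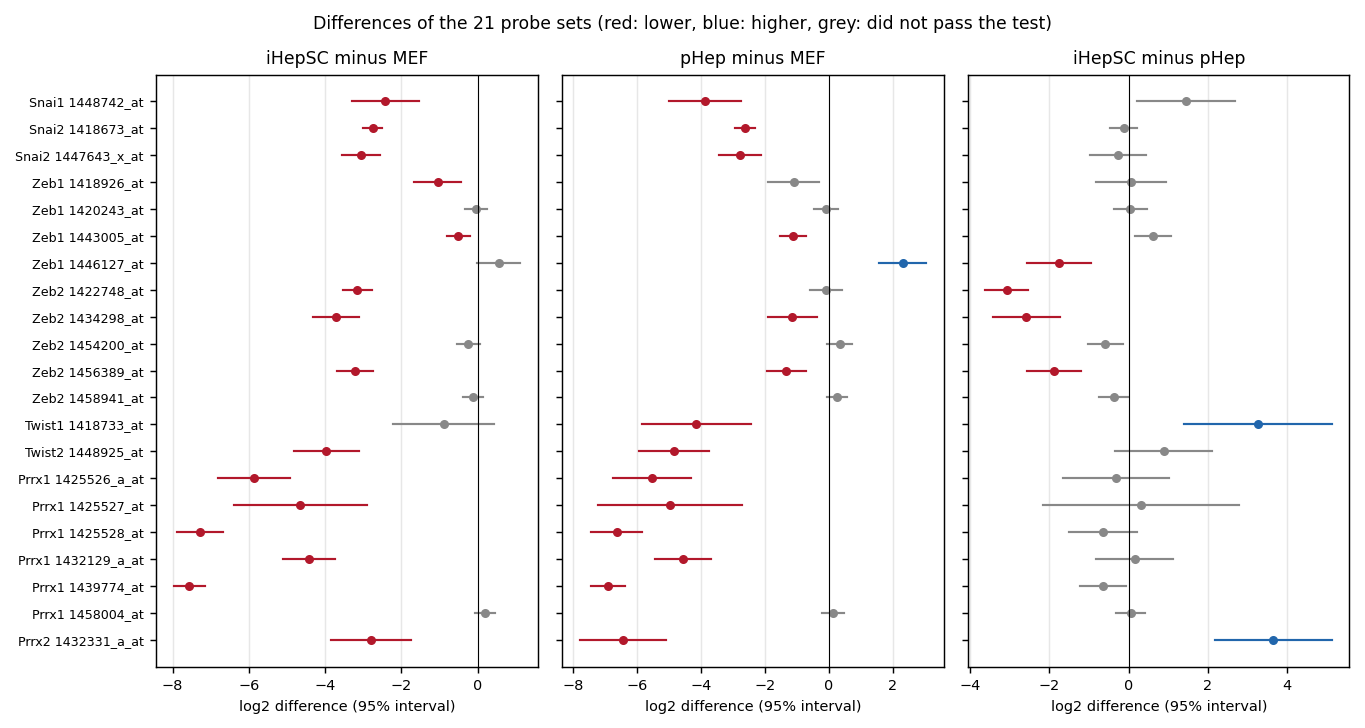
Log2 differences of the 21 probe sets with 95% intervals from limma, for iHepSC minus MEF, pHep minus MEF and iHepSC minus pHep; red is lower, blue is higher and grey did not pass the test. The Prrx1 (except 1458004_at), Twist2 and Snai2 probe sets lie left of 0 in both comparisons with MEF, and in the third panel Zeb2 lies to the left and Twist1 and Prrx2 to the right.

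The levels were about as close at both passages as those of all probe sets. The iHepSC-P20 array was within 0.3 of iHepSC-P3 on 17 of 21 probe sets, beside 85.6% of all probe sets. It was lower on 15 and higher on 6, and the share lower over all probe sets was not counted. The median of P20 minus P3 over all probe sets was 0. The largest gap was that of Prrx2, at 8.42 on P20 and 9.39 on P3, followed by Zeb1 1446127_at (5.89 and 6.48), Zeb2 1422748_at (5.07 and 5.59) and Prrx1 1425526_a_at (4.95 and 5.42), each lower on P20. Each passage was measured once, so these gaps have no test.

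MEF replicate 1 was above the other MEF arrays on 12 of 21 probe sets and below them on 7, beside 39.5% and 34.3% of all probe sets. Twist1 (1.74 above the mean of the other MEF arrays), Prrx2 (1.12) and Zeb1 1418926_at (0.78) were high on it, and its differences were -1.13 for Snai1, -1.10 for Twist2 and -0.63 for Snai2 1447643_x_at. On Zeb2 1422748_at the MEF arrays spanned 0.14. Paralogs thus lay on opposite sides, Twist1 and Prrx2 up and Twist2 down, and the Prrx1 probe sets on both.

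**Figure D4:**
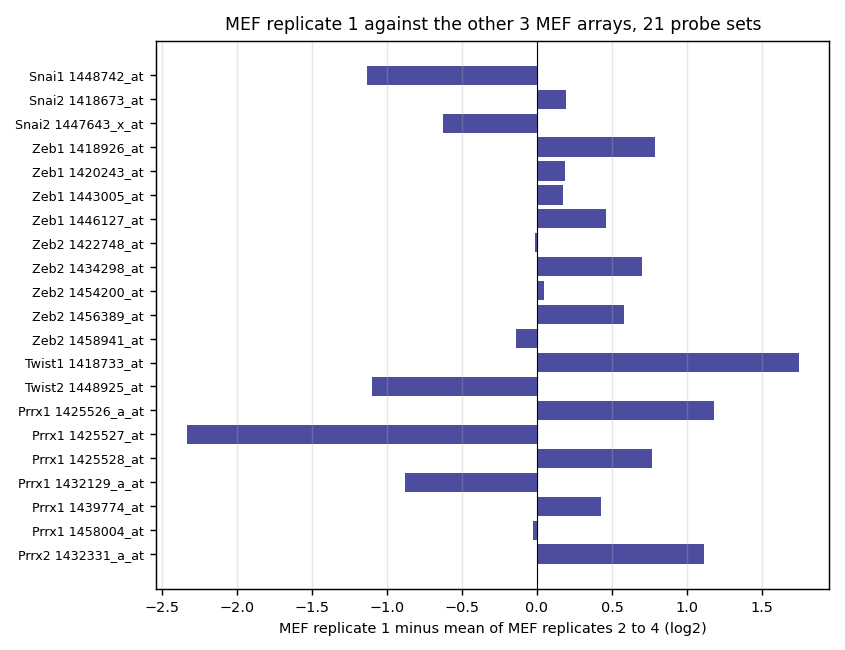
Log2 level of MEF replicate 1 minus the mean of MEF replicates 2 to 4 for each of the 21 probe sets. Bars to the right, such as Twist1 at 1.74, are higher on replicate 1, and bars to the left, such as Prrx1 1425527_at at -2.33, are lower.

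Partners, regulators and targets of the factors were taken from lists, whose counts stand beside 12.5% of all genes lower and 17.0% higher in iHepSCs than in MEF, and 15.2% lower and 14.6% higher on pHep. Among 7 E-proteins and inhibitors of DNA binding, which form dimers with or sequester helix-loop-helix proteins such as TWIST1, 2 were higher in iHepSCs than in MEF (Id1 by 1.51, Id2 by 1.47) and 3 lower (Id4 by -3.89, Id3 by -1.51, Tcf12 by -0.74), with a median of -0.74 (limma). On pHep 1 was higher (Id2, 2.16) and 2 lower (Id4, -3.88, and Id3, -1.29). Id4 was at 6.09 and 6.77 in iHepSCs, 6.44 on pHep and 9.80 to 10.54 in MEF, so that all MEF arrays lay above the other 3. The higher count in iHepSCs was 1 without either iHepSC array or MEF replicate 3, and the lower count on pHep was 1 without MEF replicate 2, 3 or 4.

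Of 13 corepressor genes, iHepSCs had 2 higher than MEF (Suz12 by 0.64, Ajuba by 0.47) and 2 lower (Hdac1 and Hdac2, each by -0.60), with a median of -0.20. Of 9 genes for Snail stability, 1 was higher (Fbxl5, a ubiquitin ligase subunit, by 1.33) and 1 lower (Lats2, a kinase, by -1.36; limma). These counts are small, with shares near those over all genes, and not firm. With 1 array left out at a time they ran from 0 to 4 and 1 to 5 for corepressors, both highest without MEF replicate 1, and from 1 to 2 and 1 to 5 for stability. With Gapdh centring 4 corepressors were higher and 0 lower. On pHep 1 was higher and 1 lower in each list, Ajuba (0.65) and Hdac1 (-0.64) among corepressors and Fbxl5 (1.18) and Usp27x, a deubiquitinase (-1.56), for stability. There 0 to 7 corepressors were higher and 0 to 3 lower with 1 array left out, and 1 to 2 and 1 to 6 stability genes, each highest without MEF replicate 1. With Gapdh centring 0 corepressors passed on pHep.

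Genes of the signals that induce these factors moved in both directions. Of 21, iHepSCs had 9 lower and 5 higher than MEF, with a median of -0.69, and 9 were lower and 3 higher on pHep, with a median of -0.87 (limma). The receptor gene Pdgfrb (-8.48) and the ligand genes Wnt5a (-7.07) and Tgfb3 (-6.27) fell furthest in iHepSCs, and Wnt5a (-4.89) and Hmga2 (-3.72) on pHep, where Tgfbr1 (1.51) and Smad3 (0.95) rose. Bmp2, a ligand that was at 9.44 and 9.76 in iHepSCs, 6.17 on pHep and 5.27 to 6.35 in MEF, rose by 3.92 ± 0.32 (adjusted p = 0.000425), and so did Met, the HGF receptor, by 1.94 and Tgfbr1 by 1.17. The count of higher genes in iHepSCs was 2 without iHepSC-P20 and 8 without MEF replicate 1, and the count on pHep was 8 without MEF replicate 1.

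Of 22 other mesenchymal factors, iHepSCs had 10 lower and 1 higher than MEF, with a median of -0.38, and on pHep 11 were lower and 1 higher, with a median of -0.73 (limma). Foxc2 (-3.80) and the T-box genes Tbx18 (-2.89) and Tbx15 (-2.86) fell furthest in iHepSCs, Foxc2 (-4.18) and Tbx18 (-4.07) on pHep, where Sox4 rose by 1.5, and Foxf2, a forkhead factor of gut and dental mesenchyme, rose by 2.13 in iHepSCs. Foxf2 was at 7.43 and 7.59 in iHepSCs, 4.22 on pHep and 5.04 to 6.19 in MEF. The third Snail family gene, Snai3, was at 6.75 and 6.45, then 5.97, then 5.91 to 6.45, and did not pass the test. The lower count in iHepSCs was 6 without either iHepSC array. The higher count was 0 without either, and 3 without MEF replicate 1. The call for Sox4 on pHep was lost without either iHepSC array, without any 1 of MEF replicates 2 to 4 and with Gapdh centring.

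**Figure D5:**
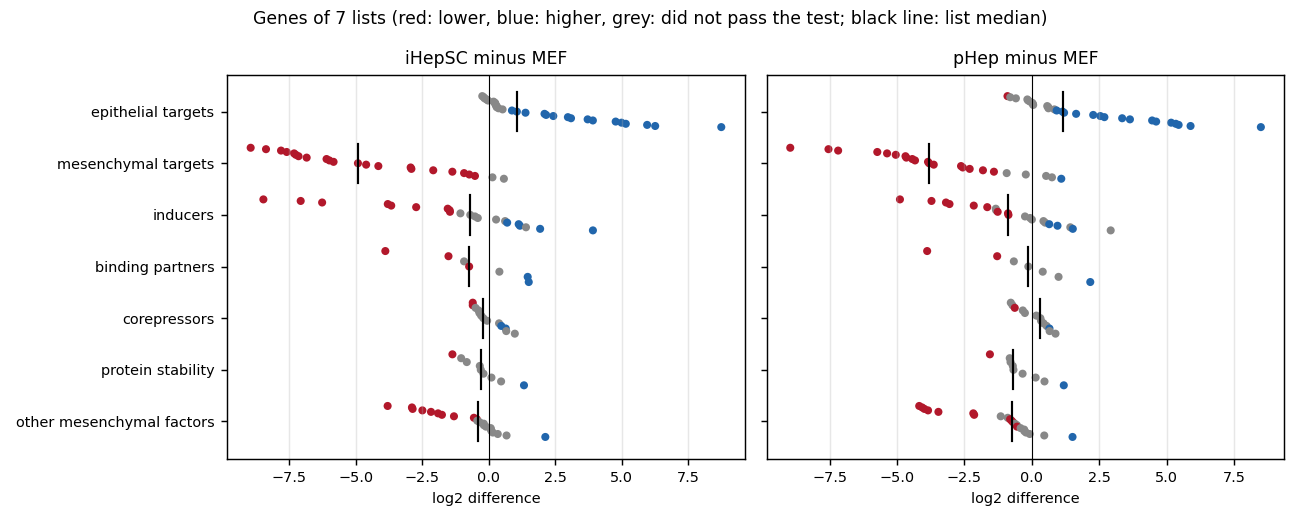
Log2 differences of the genes of 7 lists in iHepSC minus MEF and pHep minus MEF; each point is a gene, red is lower, blue is higher, grey did not pass the test, and the black line is the list median. Mesenchymal targets lie to the left with a median of -4.92 in iHepSCs, epithelial targets reach 8.75 to the right, and the other lists spread to both sides of 0.

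The genes listed as targets changed in opposite directions by list. Some also served above as cell type markers, so the target and marker counts are not separate evidence. These were Cdh1, Epcam, Krt8, Krt18 and Krt19 (progenitor markers), and Col1a1, Col1a2, Col3a1, Postn, Thy1 and Dcn (fibroblast markers). Of 29 epithelial genes that Snail or Zeb proteins are known or thought to repress, 16 were higher and 0 lower in iHepSCs than in MEF, with a median of 1.06, and 16 were higher and 1 lower (Epcam, -0.91) on pHep (limma). The last was lost with Gapdh centring and without _x_at and _s_at probe sets. Epcam, an adhesion protein, was read by 1447899_x_at, by the rule for choosing 1 of its 2 probe sets, while 1416579_a_at was at 10.01 and 9.90 in iHepSCs, 6.11 on pHep and 5.19 to 5.65 in MEF, with differences from MEF of 4.50 in iHepSCs (adjusted p = 1.52e-05) and 0.65 on pHep (adjusted p = 0.0638; limma). The largest rises in iHepSCs were those of Cdh1 (8.75), the desmosome gene Dsp (6.26) and the keratin gene Krt8 (5.96). Cdh1, the classical target, was at 12.83 and 12.78 in iHepSCs, 12.54 on pHep and 3.86 to 4.31 in MEF. Of 23 mesenchymal genes, 21 were lower and 0 higher in iHepSCs, with a median of -4.92. These falls ran from -8.95 for Cdh11 to -0.52 for Vim. Vim was at 13.97 and 14.20 in iHepSCs and 14.56 to 14.64 in MEF. On pHep 18 of the 23 were lower and 1 higher (Cdh2, N-cadherin, 1.09). Cdh2 was at 12.39 and 12.24 in iHepSCs, 12.83 on pHep and 11.53 to 12.18 in MEF, and its difference of 0.57 in iHepSCs was not past the threshold (adjusted p = 0.0996). The rise of Cdh2 on pHep was lost with Gapdh centring and without any 1 of MEF replicates 2 to 4 or either iHepSC array. Mmp14, a membrane protease, was low in iHepSCs and high on pHep, as Zeb2 was, at 5.63 and 5.67 in iHepSCs, 12.17 on pHep and 11.35 to 12.50 in MEF.

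The E-box letters stood before a larger share of epithelial targets than of all genes, which was not tested. Of 18 epithelial target genes with a RefSeq promoter, 11 (61.1%) held CAGGTG or CACCTG in the 250 bases before a start, beside 19.4% of all genes, and of 11 mesenchymal targets 0 did. The median GC content of the windows was 60.4% for epithelial targets, 53.6% for mesenchymal targets and 52.4% for all promoters. Among the 11, 8 rose in iHepSCs (Crb3, Krt18, Krt8, Lsr, Muc1, Ocln, Patj and Tjp3) and Cldn4, Cldn7 and Epcam (on 1447899_x_at) did not pass the test. Among the 7 without a box, 4 rose (Cgn, Dsp, Jup and Marveld2), and Cldn1, Cldn3 and Ovol2 did not pass the test. The probe sets read for Cldn1 and Ovol2 stayed under a log2 level of 6 on all arrays. A gene with several starts was counted once, and the lists were known to hold Snail targets, so these shares are descriptions.

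The promoters of Lsr, Crb3 and Krt18 are shown as examples of boxes before genes that were higher in iHepSCs than in MEF. Whether the repressors act on these genes was not tested. Lsr, a component of tricellular junctions, was at 11.33 and 11.37 in iHepSCs, 12.03 on pHep and 7.05 to 7.64 in MEF. Crb3, a polarity protein, was at 9.27 and 9.25, then 8.95, then 8.0 to 8.67. Its difference from MEF was 0.88 in iHepSCs (adjusted p = 0.0297) and 0.57 on pHep (adjusted p = 0.168; limma). Krt18, an epithelial keratin, was at 13.93 and 14.22, then 14.24, then 8.27 to 9.44. Capitals mark boxes with their first bases at -249, -219, -151 and -69 for Lsr, -118, -63 and -7 for the first annotated start of Crb3, and -214 for Krt18.
Lsr, chr7:30973470-30973719, strand -: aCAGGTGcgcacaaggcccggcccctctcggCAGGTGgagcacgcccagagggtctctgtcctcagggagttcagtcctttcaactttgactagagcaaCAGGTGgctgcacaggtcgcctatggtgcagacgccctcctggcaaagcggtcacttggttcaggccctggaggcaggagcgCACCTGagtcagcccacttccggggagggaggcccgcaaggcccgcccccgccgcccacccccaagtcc
Crb3, chr17:57061951-57062200, strand +: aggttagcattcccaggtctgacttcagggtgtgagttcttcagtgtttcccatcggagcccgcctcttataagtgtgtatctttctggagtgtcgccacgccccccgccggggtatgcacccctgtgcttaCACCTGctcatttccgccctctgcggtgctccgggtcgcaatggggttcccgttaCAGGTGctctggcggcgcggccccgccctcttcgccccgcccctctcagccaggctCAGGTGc
Krt18, chr15:102027966-102028215, strand +: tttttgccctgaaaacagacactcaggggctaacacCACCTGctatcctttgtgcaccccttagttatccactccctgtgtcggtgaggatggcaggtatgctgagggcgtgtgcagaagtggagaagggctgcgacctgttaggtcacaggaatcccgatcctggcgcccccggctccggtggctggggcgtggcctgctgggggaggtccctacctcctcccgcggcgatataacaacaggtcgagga

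For each member past the test in iHepSCs, the 3 genes with the nearest profile over the 7 arrays were found by the root mean square of log2 differences after each gene was centred on its mean. For Prrx1 they were Fbln5 (0.12), Gask1b (0.21) and Thy1 (0.25), of which Fbln5 encodes an elastic fibre protein and Thy1 a fibroblast surface antigen. For Zeb2 they were Mtln (0.18), Khdrbs3 (0.18) and Zfp709 (0.23), all with pHep near MEF. Khdrbs3, an RNA-binding protein, was at 5.38 and 5.84 in iHepSCs, 8.21 on pHep and 8.52 to 8.83 in MEF. For Snai1 they were P2ry10b (0.14), Arhgap31 (0.17) and Hmga2 (0.21), the last a chromatin protein listed among the inducers, and for Snai2 they were Fap (0.12), Foxs1 (0.16) and Gng2 (0.17).

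Zeb1 was nearest to Kifap3 (0.07), Rab2b (0.08) and Rab8b (0.09), a kinesin adaptor and small GTPases of vesicle traffic. Twist2 was nearest to Sema3a (0.21), Sh3kbp1 (0.23) and Prkd1 (0.24). Prrx2 had the most distant neighbours, Cav1 (0.49), Dclk1 (0.52) and Col6a2 (0.61), with Cav1, a protein of caveolae, at 11.72 and 12.02 in iHepSCs, 8.0 on pHep and 13.87 to 14.07 in MEF. With 7 arrays in 3 groups, such likeness is largely a matter of the 3 group levels and is given as a description.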

How the data were processed

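RNA of iHepSCs (2 arrays), pHep (1) and MEF (4) was hybridised to Affymetrix mouse expression arrays. The authors deposited log2 values of 45101 probe sets made by RMA (background correction, quantile normalization between arrays, summary per probe set), whose version is not given in the sources used here. The precision is limited by the number of arrays.

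Here, 64 control probe sets were left out, and 45037 were tested, of which 34945 carried 1 gene symbol, 932 several and 9160 none in the array annotation. Group means were compared with limma 3.58.1 (R 4.3.3; lmFit, eBayes) in 1 model over all 7 arrays with 4 residual degrees of freedom, and p-values were adjusted by Benjamini-Hochberg over all probe sets, with a threshold of 0.05. The probe set of highest mean stood for each gene. The fit was tested on simulated data first. The members and all lists were chosen with earlier results of these data known. Named genes are all members, the genes of each list with the largest changes past the test (up to 3 in each direction for iHepSC, 2 for pHep) and the 3 nearest profiles per called member. Other genes (Cdh2, Vim, Mmp14, Snai3, Lsr, Crb3, Krt18, those of the E-box counts and the markers named) were chosen after their values were seen. Alternatives covered probe set choice, a filter at a log2 level of 6, normalization, variance model, replicate block, left-out arrays, a floor of 1 on the log2 difference and the methods' t-test. Promoter sequences are from RefSeq (GRCm38.p6), which held 6 of the 8 members. Python 3.11.15, pandas 2.3.3 and matplotlib 3.10.9 made the tables and figures.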

Additional observations from a re-analysis of the deposited data

Results flagged for a closer look

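On 8 of the 21 probe sets, MEF replicate 1 lay so far from the other 3 MEF arrays that its gap exceeded Dixon's critical value for a group of 4. Chance flags about 1 in 20 groups, and 17.4% of all probe sets had such a gap for this array. It was high on Zeb1 1418926_at (11.31), Twist1 (10.43) and 2 Prrx1 probe sets (1425526_a_at at 11.93 and 1425528_at at 12.89). It was low on Snai1 (7.91), Snai2 1447643_x_at (12.07) and 2 other Prrx1 probe sets (1425527_at at 8.37 and 1432129_a_at at 9.08).

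On 6 probe sets the difference from MEF in iHepSCs was unlike that in pHep by limma's test of iHepSC against pHep. It was lower in iHepSCs by the amounts of -3.07, -2.58 and -1.89 on the Zeb2 probe sets 1422748_at, 1434298_at and 1456389_at, and of -1.76 on Zeb1 1446127_at. It was higher in iHepSCs by 3.26 for Twist1 and by 3.66 for Prrx2. Each rests on the single pHep array.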

How the results depend on the processing

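Members' probe sets called between iHepSC and MEF ran from 10 to 17 with 1 array left out at a time, those between pHep and MEF from 14 to 16, and those between iHepSC and pHep from 4 to 12. By gene the ranges were 4 to 8, 6 to 7 and 1 to 6. The highest counts of iHepSC against pHep (12 and 6) came without MEF replicate 1. Without it, the share of all probe sets called rose as well. It was 47.6% between iHepSC and MEF, beside 22.7% in the main fit, and 37.1% between iHepSC and pHep, beside 15.6%. With MEF replicates 2 to 4 averaged, 4 genes were called between iHepSC and MEF, and 2 probe sets and 1 gene between iHepSC and pHep. The shares of all probe sets called were then 8.66% and 7.19%. The replicate numbers did not pair the samples (correlations of deviations -0.22 and -0.193). With the replicate block, 4 genes were called between iHepSC and MEF, and 4 probe sets and 2 genes between pHep and MEF. Between iHepSC and pHep 0 of each were called. The shares of all probe sets called with the block were 3.25%, 1.52% and 0%, in the same order. Over single probe sets and genes, the sign turned only where nothing was called. Between iHepSC and MEF this held with Gapdh centring for Zeb1 1420243_at (0.45), Zeb2 1454200_at (0.24) and 1458941_at (0.37), and for Zeb1 1420243_at without iHepSC replicate 1 (0.0217) and MEF replicate 1 (0.0053), the range with 1 array left out being -0.1056 to 0.0217. Between iHepSC and pHep it held with Gapdh centring for Snai2 (0.33 and 0.19), Prrx1 1425526_a_at (0.14) and Zeb2 1458941_at (0.0812). The block gave 0.11, -0.25 and -0.0216 for Prrx1 1425526_a_at, 1425527_at and 1432129_a_at. Repeated quantile normalization gave -0.0291 for Zeb1 1420243_at and -0.0161 for Prrx1 1458004_at, and 0.0011 for Zeb1 1420243_at between pHep and MEF. Zeb1 1420243_at was at -0.0177 without iHepSC replicate 2, Prrx1 1458004_at at -0.094 without iHepSC replicate 1, and Zeb1 as the mean of its probe sets at -0.26. The causes were not tested. The single pHep array, assumed to vary like the others, and low levels limit these comparisons.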
